A study of Mus musculus with 3 samples.

Results

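The regions described here are the open-chromatin regions that were called in mouse embryonic stem cells expressing Halo-Sox2, that had no overlapping call in cells expressing Halo-Sox2a or in control cells, and that lay outside protein-coding genes. Overlapping peaks of the 3 deposited ATAC-seq peak lists, sharing at least 1 bp, were merged into union regions on chromosomes 1 to 19 and X. A region was kept when only the Halo-Sox2 list had a peak there and its midpoint lay in no protein-coding gene, from the start to the end of the RefSeq gene. This gave 15337 regions of 130604 in all, and of the 62507 whose midpoint lay outside genes. They are called the Halo-Sox2 only regions below. They were chosen by the presence and absence of called peaks in these libraries, so their numbers and scores are a description and support nothing further.

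ATAC-seq marks accessible DNA by the insertion of sequencing adapters with the Tn5 transposase. Each of the 3 groups had 1 library, made from a line derived from the CGR8 line of mouse embryonic stem cells. SES4.1 cells received 300 ng/mL doxycycline for 20 h to express Halo-Sox2. SES5.1 cells received 70 ng/mL for 20 h to express Halo-Sox2a. Both proteins were labelled with 50 nM Halo-SiR dye and the cells were sorted through 1 intensity gate. SES11 cells, the control, carried no inducible transgene, and their labels give no doxycycline dose and do not say whether they were stained or sorted. All 3 lines were grown with leukemia inhibitory factor, the GSK3 inhibitor CHIR99021 and the MEK inhibitor PD184352. Each protein was represented by 1 line and 1 library, so line, library, dose and protein cannot be told apart. The labels do not say what sets Sox2a apart from Sox2.

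Sox2 is a transcription factor of the SOX family. Its HMG box binds the minor groove at short words such as ACAAAG and ACAATG and bends the DNA. In embryonic stem cells it works with Oct4, which binds the octamer ATGCAAAT, to maintain pluripotency, and it is also a regulator of neural progenitors. It is described as a pioneer factor, able to bind sites within nucleosomes, and much of its binding lies in enhancers far from gene starts.

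The sequences at 6 Halo-Sox2 only regions are shown because these were among the 7 highest-scoring that reached a RefSeq promoter window, defined as 250 bases before to 50 bases after a gene's start. Each is the 250 bases before the start, read 5′ to 3′ on the gene's strand from RefSeq, build GRCm38.p6. SOX core words (ACAAAG or ACAATG, on either strand) and octamers (ATGCAAAT, on either strand) are in capitals. This choice was made after the scores were seen.
Gm40173 (chr3:147924265-147924514, minus strand): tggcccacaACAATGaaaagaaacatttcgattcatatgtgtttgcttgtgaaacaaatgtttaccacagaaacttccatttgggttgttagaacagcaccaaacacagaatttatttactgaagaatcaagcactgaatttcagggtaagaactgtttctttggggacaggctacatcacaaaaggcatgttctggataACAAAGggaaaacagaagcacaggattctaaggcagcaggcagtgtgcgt
Prr5l (chr2:101883028-101883277, minus strand): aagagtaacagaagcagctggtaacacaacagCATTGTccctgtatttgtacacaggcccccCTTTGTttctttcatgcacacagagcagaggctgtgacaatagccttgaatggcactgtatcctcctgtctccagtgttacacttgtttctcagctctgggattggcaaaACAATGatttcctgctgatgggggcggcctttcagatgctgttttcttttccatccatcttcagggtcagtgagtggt
Gm39692 (chr1:164960396-164960645, minus strand): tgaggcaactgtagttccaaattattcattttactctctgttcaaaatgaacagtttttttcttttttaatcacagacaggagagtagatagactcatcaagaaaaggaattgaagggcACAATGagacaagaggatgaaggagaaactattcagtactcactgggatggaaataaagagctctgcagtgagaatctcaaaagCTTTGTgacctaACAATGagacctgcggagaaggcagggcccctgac
Gm35314 (chr5:99366730-99366979, plus strand): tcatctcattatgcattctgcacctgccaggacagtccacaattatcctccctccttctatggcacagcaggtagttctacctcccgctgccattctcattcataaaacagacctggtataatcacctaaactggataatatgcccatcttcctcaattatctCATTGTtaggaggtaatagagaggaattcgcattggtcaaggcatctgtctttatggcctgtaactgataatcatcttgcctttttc
Gm31154 (chr3:54534892-54535141, minus strand): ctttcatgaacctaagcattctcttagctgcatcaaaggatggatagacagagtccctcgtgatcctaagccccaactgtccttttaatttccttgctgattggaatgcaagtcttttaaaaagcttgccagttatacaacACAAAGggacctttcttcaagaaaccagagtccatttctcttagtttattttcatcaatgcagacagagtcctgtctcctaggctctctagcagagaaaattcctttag
Ermn (chr2:58052865-58053114, minus strand): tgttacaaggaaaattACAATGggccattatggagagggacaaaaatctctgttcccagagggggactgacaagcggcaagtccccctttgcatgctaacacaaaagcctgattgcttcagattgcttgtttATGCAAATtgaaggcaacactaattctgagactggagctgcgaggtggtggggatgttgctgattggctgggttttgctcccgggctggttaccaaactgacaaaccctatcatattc

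Of these genes, Prr5l encodes a protein that binds the mTORC2 complex and Ermn encodes a cytoskeletal protein of myelinating oligodendrocytes. The other 4 are long non-coding RNA genes. Every one of the 6 sequences held a SOX core word, with 3 each at Prr5l and Gm39692 and 2 at Gm40173. Such words are common. They were in 58.8% of the promoter windows at Halo-Sox2 only regions and in 29.1% of all promoter windows. Among all windows of under 45% GC, which are the likest to most of these sequences, the share was 44.4%. The 6 examples do not stand for the other regions. The called peak covered all the bases shown at each of the 6, so every SOX core word shown lay under it by construction. The seventh region, at Gm41264, reached 36 bp into the window, downstream of the bases before the start, so no sequence is shown for it. Its 250 bases before the start held 1 SOX core word and 1 octamer, neither under the peak. Among the 6 sequences shown, an octamer was present at Ermn. The scores of these peaks ran from 577 at Ermn to 773 at Gm40173, ranks 8359 and 3855 in the Halo-Sox2 list.

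The Halo-Sox2 only regions made up 24.5% of all regions outside protein-coding genes (Wilson 95% interval 24.2 to 24.9%). The background was nearly the same, since 24.3% of all union regions, and 24.1% of those inside genes, were held by Halo-Sox2 alone. Of the 39739 regions outside genes with a Halo-Sox2 peak, 38.6% had no peak in the other 2 lists. The corresponding regions held by Halo-Sox2a alone numbered 7669 (12.3%), and those held by the control alone 7627 (12.2%). The Halo-Sox2 list was also the longest, with 88898 peaks against 83995 for Halo-Sox2a and 72638 for the control. Depth is unknown because reads were not used here, and list length moves with depth. All intervals given cover counting error only, and neighbouring regions are not independent. There were no replicates, so replicate error is unknown and no test was made.

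The stem cell label was checked with lists of marker genes, counting genes with a peak within 1 kb of either gene end. For pluripotency genes the count was 17 of 20 in Halo-Sox2, 19 in Halo-Sox2a and 17 in the control. Genes for neural transcription factors had such a peak at 24 of 24 in every library. In the same order of libraries, the counts were 9, 9 and 8 of 12 trophoblast genes and 11, 11 and 9 of 12 mesendoderm genes. For primitive endoderm genes they were 7, 8 and 7 of 12. A peak near a gene end therefore did not set the pluripotency list apart from every other list, and this check does not test the cell type. At the Sox2 gene itself, 6 Halo-Sox2 only regions lay within 50 kb of the gene, among 16 regions of any class outside genes. Their scores ran from 23 to 293 with a median of 82.5. The share over all regions outside genes was 24.5%, and nothing is read from so few regions.

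Halo-Sox2 only regions lay farther from genes than regions of all 3 lists or Halo-Sox2a only regions. Even so, 9496 of the 15337 lay within 100 kb of a gene end. Their midpoints lay a median of 56.4 kb from the nearest end of a protein-coding gene, with quartiles of 14.2 and 189 kb. Regions held by all 3 lists lay at a median of 18.4 kb, and those held by Halo-Sox2a alone at 27.0 kb. More than 100 kb from any gene end lay 38.1% of the Halo-Sox2 only regions (37.3 to 38.9%), 24.3% of the Halo-Sox2a only regions (23.3 to 25.2%) and 20.5% of the regions of all 3 lists (19.9 to 21.1%). This distance was not particular to Halo-Sox2, because 38.6% of the regions held by the control alone lay as far (37.5 to 39.7%). Beyond 500 kb the control only regions had the larger share, 11.3% (lower bound 10.6%) against 7.49% (7.09 to 7.92%). Within 1 kb of a gene end lay 415 Halo-Sox2 only regions (2.71%), against 17.0% of the regions of all 3 lists.

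The share of regions held by Halo-Sox2 alone was larger the longer the stretch between neighbouring protein-coding genes. It was 15.1% in stretches of up to 20 kb, 18.7% from 20 to 100 kb, 24.5% from 100 to 300 kb, 30.6% from 300 to 1000 kb and 31.1% beyond 1000 kb, the last pair being alike within counting error. Over the same classes the share held by all 3 lists fell from 43.9 to 21.0%. The share held by Halo-Sox2a alone went from 12.6% in the shortest stretches to 9.84% in the longest, and that held by the control alone from 8.18 to 17.7%. Among regions with a Halo-Sox2 peak, those in no other list were 21.6% in the shortest stretches and 51.9% in the longest. The median score of the Halo-Sox2 only regions was 87 in the shortest stretches and 119 in the longest. Of the 11841 stretches with a region outside genes, 302 had at least 10 Halo-Sox2 only regions, together 4482 of them (29.2%). Long stretches held many regions of any class, with 11300 in the 275 stretches beyond 1000 kb. No such count was made for the other classes, so nothing is read from it.

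**Figure D1:**
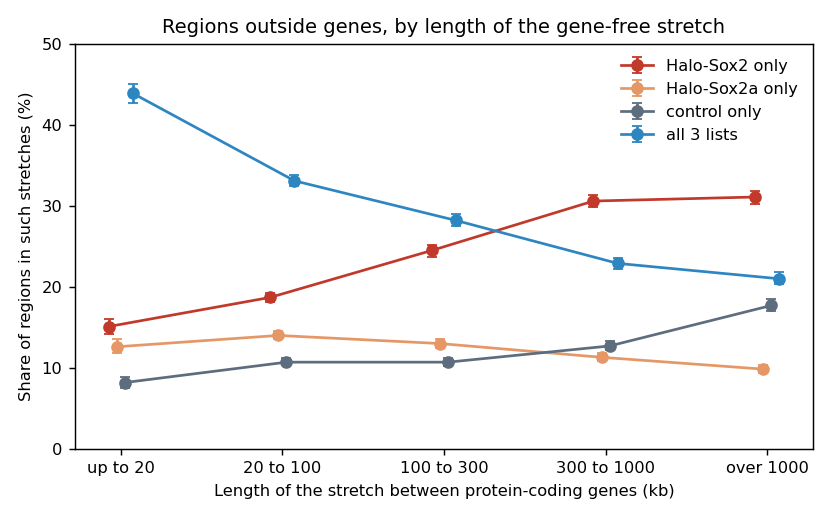
Share of regions outside genes (y axis, percent) held by Halo-Sox2 alone, by Halo-Sox2a alone, by the control alone and by all 3 lists, against the length of the stretch between protein-coding genes (x axis, kb); bars on the points are Wilson 95% intervals. The share held by Halo-Sox2 alone goes from 15.1 to 31.1% while that of all 3 lists goes from 43.9 to 21.0%.

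The Halo-Sox2 only regions ranked from the bottom of their list to near its top, at rank 40, but their scores stayed far below the highest of the list, 29664. The score is the authors' whole number for each peak, with no stated scale, and it ranks peaks within a list only. The lowest was 13, the lowest in the whole list, the quartiles were 60 and 224, the median was 109 and the highest was 1839. The median stood at percentile 38.7 of the Halo-Sox2 list. Regions outside genes held by Halo-Sox2 and Halo-Sox2a had a median Halo-Sox2 score of 149, and those of all 3 lists 191. A total of 2309 Halo-Sox2 only regions, or 15.1% (14.5 to 15.6%), ranked above percentile 75 of their list. The regions held by another list alone ranked low in that list: 46 Halo-Sox2a only regions (0.600%) and 74 control only regions (0.970%) were above percentile 75 of their own lists. Median widths were 378 bp for Halo-Sox2 only, 291 bp for Halo-Sox2a only and 277 bp for control only regions. Regions of all 3 lists, which merge several peaks, had a median of 787 bp.

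Regions with a weak Halo-Sox2 peak were held by that list alone more often than regions with a strong one. In the lowest score decile 53.7% of the regions outside genes with a Halo-Sox2 peak were in no other list, and in the highest decile 16.4% were. Inside genes these shares were 54.4 and 12.5%. In the eighth decile the share was 35.1% outside genes and 24.3% inside them. When only regions more than 10 kb from a gene end were counted, the eighth decile gave 43.1% outside and 39.8% inside, and all deciles together 44.1% (43.5 to 44.6%) and 45.7% (45.1 to 46.3%). The gap in the upper deciles was thus largely gone away from gene ends.

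**Figure D2:**
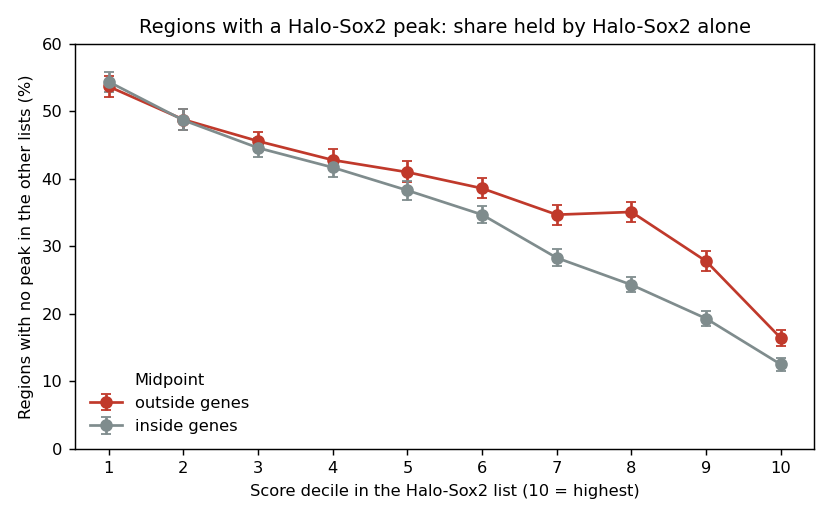
Share of regions with a Halo-Sox2 peak that had none in the other 2 lists (y axis, percent), by score decile in the Halo-Sox2 list (x axis, 10 highest), outside and inside protein-coding genes, with Wilson 95% intervals as bars. The share goes from 53.7 to 16.4% outside genes and from 54.4 to 12.5% inside.

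The rule asked only for no overlap with a peak of the other lists, so the distance to the nearest one was also described. No such distance was computed for the other classes, so it does not set these regions apart. No other-list peak lay within 500 bp of 14821 regions, or 96.6% (96.3 to 96.9%). The median distance to the nearest such peak was 9.83 kb, with quartiles of 3.39 and 24.6 kb. The 516 regions with a peak within 500 bp had a median score of 69, and the 1628 regions with none within 50 kb had a median of 119. Regions at the border of the rule scored low. The 42 Halo-Sox2 only regions with another list's peak at most 50 bp away had a median score of 44, and the 76 Halo-Sox2 peaks outside genes that overlapped another list's peak by at most 50 bp, and so were left out, had a median of 46. At gene ends, 45 regions with a midpoint up to 100 bp outside a gene had a median score of 70, and 70 with a midpoint up to 100 bp inside had 66.5. The nearest region of all 3 lists lay a median of 25.2 kb from a Halo-Sox2 only region, 25.1 kb from a control only region and 14.8 kb from a Halo-Sox2a only region.

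SOX core words were more frequent at promoter windows reached by Halo-Sox2 only regions than at promoter windows in general. Of the 15337 regions, 160 (1.04%) overlapped a promoter window, 111 of lncRNA genes and 49 of protein-coding genes, and for each the window with the longest overlap was read. Any word described for them covers this small, promoter-near subset and not the regions far from genes. A SOX core word was present in 94 of the 160 windows, or 58.8% (51.0 to 66.1%). It was present in 29.1% of 28932 promoter windows that did not overlap each other. The share was 39.1% (30.7 to 48.3%) at Halo-Sox2a only regions, 28.1% (21.2 to 36.3%) at control only regions, 49.2% (40.7 to 57.8%) at regions of Halo-Sox2 and Halo-Sox2a, and 21.1% (19.6 to 22.7%) at regions of all 3 lists. The interval of the Halo-Sox2 only regions overlapped that of regions of Halo-Sox2 and Halo-Sox2a. The intervals of Halo-Sox2 only and Halo-Sox2a only regions did not overlap. They did overlap under 3 alternatives. When sharing required 50% of both peaks the shares were 46.0% (40.6 to 51.4%) and 40.9% (33.5 to 48.8%). With scores at least 2 times the lowest the intervals were 51.8 to 66.7% and 35.9 to 54.3%. With lists of equal size the shares were 61.3% (52.4 to 69.6%) and 43.6% (34.3 to 53.3%). Under the same 3 alternatives the control only regions gave 29.4% (22.9 to 36.8%), 27.0% (19.7 to 35.7%) and 28.7% (22.7 to 35.6%), below the intervals of the Halo-Sox2 only regions.

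Both forms of the word contributed. ACAAAG was present in 43.8% of the windows at Halo-Sox2 only regions and in 19.3% of all windows, and ACAATG in 30.6 and 12.6%. At least 2 words were present in 24.4% (18.4 to 31.6%) against 5.81% of all windows, and at least 3 in 6.25% (3.43 to 11.1%) against 0.823%. The part of these windows under the called region held 3.57 words per kb (115 words in 32.2 kb), and the part beyond it 2.01 per kb (29 words in 14.4 kb). At Halo-Sox2a only regions these densities were 1.47 and 1.77 per kb, and at control only regions 0.973 and 1.34 per kb. The share with a word was 54.1% (41.7 to 66.0%) below percentile 25 of the list by score and 72.0% (52.4 to 85.7%) above percentile 75, with overlapping intervals. It was 61.3% at lncRNA genes and 53.1% at protein-coding genes, against 34.6 and 26.2% of all such windows.

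A ranking of all 6-letter words, counted on both strands, put SOX-like words at the top. Among 964 words found in at least 20 of the 160 windows, the largest ratios to all windows were those of AACAAT (32.5% against 11.0%), ACAATG (30.6% against 12.6%) and ACAAAG (43.8% against 19.3%). AACAAT and ACAATG share 5 letters and often mark the same place, so they are not separate observations. At Halo-Sox2a only regions AACAAT was present in 12.2% of windows and at control only regions in 11.9%. The next words, CATTCA and ATTCAG, had ratios of 2.22 and 2.16. The octamer ATGCAAAT was in 6 windows, 3.75% against 1.78%, and its interval (1.73 to 7.94%) included that background. The AP-1 word TGANTCA was in 10.6% against 8.18%, the E-box CAGCTG in 15.6% against 16.7%, the GATA word GATAAG in 8.12% against 7.80%, the TEAD word ACATTCC in 3.75% against 4.01%, and the KLF word CCACACCC in 2.50% against 3.59%. The ESRRB word TCAAGGTCA was in 1 window (0.625%) against 0.429%. The CTCF words were in 0 of 160 windows, against 0.277% of all windows, and a count of 0 allows a share of up to 2.34% (upper Wilson bound). The SOX-OCT composite words, a SOX word beside an octamer, in a strict and a relaxed form, were also in 0 of 160, with the same upper limit, against 0.00346 and 0.0207% of all windows. All words were searched on both strands. A match is a description of the letters and does not show binding.

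Base composition differed between the windows and moves with the words. The median GC content was 47.3% at Halo-Sox2 only regions, 51.0% at Halo-Sox2a only regions, 51.7% at control only regions, 61.0% at regions of all 3 lists and 52.3% over all windows. Within windows of under 45% GC, 65.5% (52.7 to 76.4%) at Halo-Sox2 only regions held a SOX core word, against 44.4% of all windows. From 45 to 50% GC the shares were 70.7% (55.5 to 82.4%) and 36.4%, and at 55% GC and over 50.0% (31.4 to 68.6%) and 17.0%. From 50 to 55% GC the interval of the Halo-Sox2 only windows, 40.5% (26.3 to 56.5%), included the background of 30.0%. In each of the 4 bands the interval of the Halo-Sox2 only windows overlapped that of the Halo-Sox2a only windows, whose shares were 36.4% (15.2 to 64.6%), 55.3% (39.7 to 69.9%), 28.6% (17.2 to 43.6%) and 33.3% (18.0 to 53.3%) from the lowest GC band to the highest. The control only windows gave 47.6% (28.3 to 67.6%), 25.7% (14.2 to 42.1%), 28.6% (16.3 to 45.1%) and 20.5% (11.2 to 34.5%), and their intervals overlapped those of the Halo-Sox2 only windows in every band but 45 to 50% GC. Windows of Halo-Sox2 and Halo-Sox2a regions gave 88.2% (65.7 to 96.7%), 63.0% (44.2 to 78.5%), 47.4% (32.5 to 62.7%) and 28.3% (17.3 to 42.5%). These intervals overlapped those of the Halo-Sox2 only windows in every band. At these numbers of windows the classes could mostly not be separated within a band, and the part of GC content in the difference between them cannot be told apart here.

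**Figure D3:**
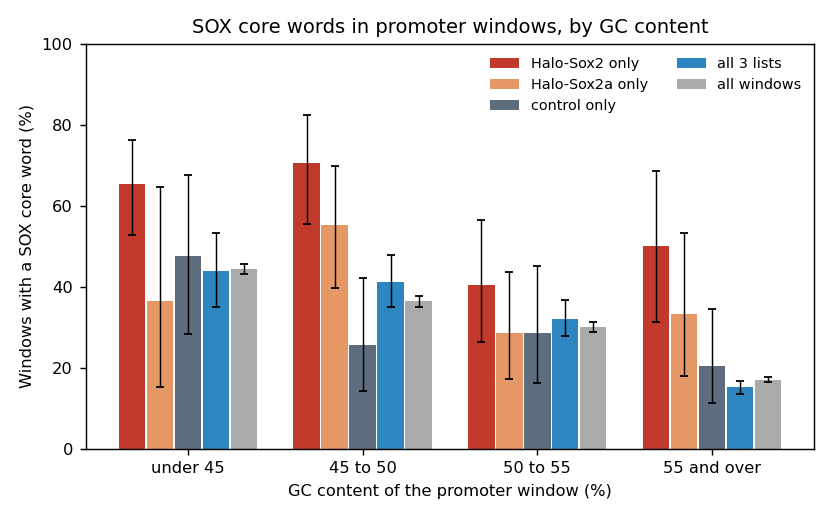
Share of promoter windows with a SOX core word (y axis, percent) by GC content of the window (x axis, percent), as bars for windows at Halo-Sox2 only, Halo-Sox2a only, control only and all-3-list regions outside genes and for all promoter windows, with Wilson 95% intervals as whiskers. Halo-Sox2 only windows lie above all windows in each band, with an interval that includes the background of 30.0% from 50 to 55% GC.

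The same words were counted at promoter windows reached by regions inside genes, which the rule does not include. There 47.2% (40.0 to 54.5%) of 178 windows at Halo-Sox2 only regions held a SOX core word, 25.8% (19.0 to 34.0%) at Halo-Sox2a only regions and 28.6% (21.7 to 36.5%) at control only regions. At regions of Halo-Sox2 and Halo-Sox2a inside genes the share was 35.1% (28.3 to 42.6%), with an interval overlapping that of the Halo-Sox2 only regions. Regions inside genes came from the same 3 libraries and are not replicates.

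The 10 highest-scoring Halo-Sox2 only regions were spread over 5 chromosomes, with 6 of them on chromosome 8. Their names below are those of the nearest protein-coding gene, and no link to that gene was measured. The first, at chr8:8408761-8409715, had a score of 1839 and rank 40, and lay 208 kb from Efnb2, which encodes the membrane-bound ligand ephrin-B2. It sat in a gene-free stretch of 3512 kb, and no region of all 3 lists lay within 50 kb. The second, at chr13:113525327-113526099, scored 1534 and lay 66.5 kb from Snx18, a sorting nexin gene, over the non-coding genes Gm34471 and Gm34528. The region at chr8:44389070-44389773, with a score of 1373, lay 544 kb from Fat1, an atypical cadherin gene, and its nearest peak of another list was 155 kb away. By contrast, the region near 9530057J20Rik, at chr8:20013872-20014504 with a score of 1298, had a peak of another list 0.169 kb away.

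The remaining 6 of these 10 regions scored from 1280 to 1379. One lay 134 kb from Col8a1, a collagen VIII gene, at chr16:57888295-57889055. One lay 102 kb from Fgf20, a fibroblast growth factor gene, at chr8:40177353-40177721. One lay 20.5 kb from Map3k21, a MAP kinase kinase kinase gene, at chr8:125967555-125968325, and 5 regions of all 3 lists lay within 50 kb of it. The other 3 were nearest to Iqcm (chr8:75375279-75376263), Gm45988 (chr7:64100107-64101000) and 2010315B03Rik (chr9:124289346-124290005). The last of these lay 2.13 kb from its gene in a stretch of 8.38 kb, the shortest among the 10.

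Chromosome 8 carried more high scores in every list, and not only among these regions. Of the Halo-Sox2 only regions on chromosome 8, 77 (7.88%) ranked above percentile 90 of the list, against 4.30% (3.99 to 4.64%) over all chromosomes and 4.06% without chromosome 8. On chromosome 3 the share was 6.49%, on chromosome 1 5.30%, and on the X chromosome 1.45%. Among all peaks on chromosome 8, 15.1% of the Halo-Sox2 peaks, 14.0% of the Halo-Sox2a peaks and 13.8% of the control peaks ranked above percentile 90 of their list, the highest share of any chromosome in each. The share of regions outside genes held by Halo-Sox2 alone ranged from 21.5% on chromosome 17 to 29.0% on chromosome 18. The copy number of chromosome 8 in these lines was not examined, and its part in these scores was not tested.

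**Figure D4:**
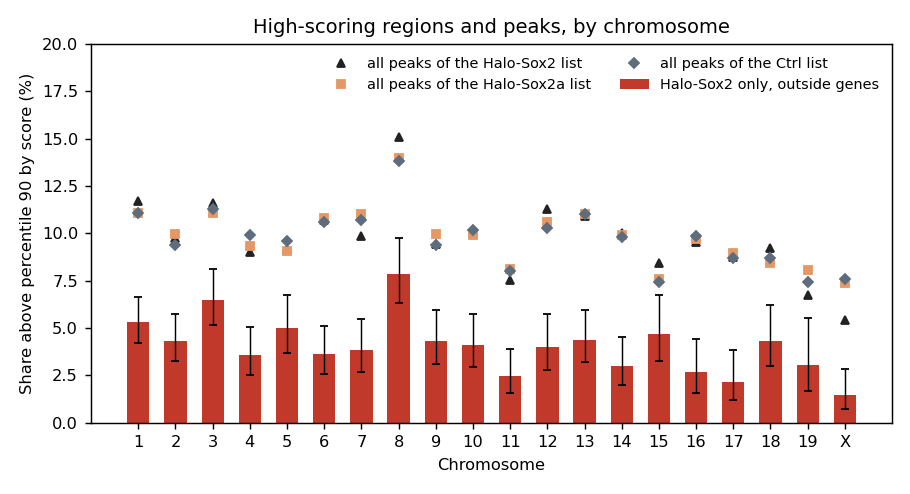
Share above percentile 90 by score (y axis, percent) on each chromosome (x axis), for Halo-Sox2 only regions outside genes and for all peaks of the 3 lists. Chromosome 8 stands highest for the Halo-Sox2 only regions, at 7.88%, and for all 3 lists, at 15.1, 14.0 and 13.8%.

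Runs of Halo-Sox2 only regions along the chromosomes were listed to describe where they lay. A run is a row of neighbouring regions outside genes with no region of another class between them. There were 2070 runs of 2 regions, 653 of 3, 235 of 4 and 68 of 5, and the longest had 12. With 24.5% of all regions being Halo-Sox2 only, short runs also arise from that share, no background was computed, and nothing is read from their number. The longest run spanned 257 kb of chromosome 2 at chr2:78984084-79240997, between Itga4, which encodes an integrin subunit, and Ube2e3, which encodes a ubiquitin-conjugating enzyme. Its 12 peaks had scores from 39 to 322 with a median of 196, so most stood above the median of 109 of all Halo-Sox2 only regions. A run of 10 covered 402 kb near D3Ertd751e at chr3:42130316-42532409, with scores from 46 to 460 and a median of 276.5. A further run of 10 covered 302 kb at chr4:56087494-56389344 between Klf4, which encodes a pluripotency factor, and Actl7b, an actin-like gene, with scores from 24 to 461 and a median of 247. This run began 555 kb from Klf4, at the farthest region that had Klf4 as its nearest gene. The later regions of the run were nearest to Actl7b. None of the 3 runs spanned a protein-coding gene, so no region inside a gene could lie between the members.

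By nearest gene, the regions were spread over many genes with few regions each. Of the 13389 protein-coding genes that were nearest to any region outside genes, 6127 (45.8%) were nearest to a Halo-Sox2 only region, and 218 were nearest to 10 or more. These numbers of genes were not computed for the other classes, so nothing is read from them. Efnb2 had the most, 29 of its 73 regions. Pik3c3, the class III phosphoinositide 3-kinase gene, had 27 of 59, and Zfp608, a zinc finger gene, 27 of 66. The cadherin genes Cdh11 and Cdh8 had 24 of 71 and 24 of 107, the latrophilin gene Adgrl2 had 23 of 105, the teneurin gene Tenm3 22 of 83, and Cntnap5b, of the contactin-associated protein family, 21 of 64. Others were Serpinb8, a protease inhibitor gene, with 24 of 37, Myc with 23 of 68, Btbd3, a regulator of dendrite orientation, with 21 of 50, and Got2, a mitochondrial aminotransferase gene, with 21 of 83. The share at Serpinb8 was the highest of these 12 genes, 64.9% (48.8 to 78.2%), and the shares at Adgrl2 and Cdh8, 21.9 and 22.4%, were below the 24.5% over all regions. A high count at these genes thus did not always go with a high share. At Cdh8 and Tenm3 control only regions outnumbered the Halo-Sox2 only regions, with 29 and 26. Of the 12 genes 5 were on chromosome 8 (Efnb2, Cdh11, Cdh8, Tenm3 and Got2).

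Gene lists were compared by the share of the regions nearest to their genes that were held by Halo-Sox2 alone. Since this share differed with distance, from 21.4% (21.0 to 21.8%) of all regions within 100 kb of a gene end to 32.2% (31.5 to 32.9%) beyond, each list was read on both sides of 100 kb. The lists were not matched for the length of the gene-free stretch, with which the share also rose. The part of stretch length in the values below was not tested, and the control only share was not split by distance. Lists of neuronal surface proteins stood above the 24.5% of all regions. Axon guidance genes, encoding ligands and receptors that steer growing axons, had 182 of 537 regions (33.9%, 30.0 to 38.0%), and 27 of 30 genes had at least 1. Neuronal adhesion genes had 319 of 1044 (30.6%, 27.8 to 33.4%) at 33 of 34 genes, and transmitter receptor genes 75 of 243 (30.9%, 25.4 to 36.9%) at 19 of 22. The control only share was also above its 12.2% of all regions, at 21.6% for neuronal adhesion and 15.6% for transmitter receptor genes, and for neuronal adhesion it stood above its background by a larger factor than the Halo-Sox2 only share. Within 100 kb the shares of these 3 lists were 29.5% (23.5 to 36.3%), 33.3% (26.8 to 40.6%) and 33.7% (25.1 to 43.5%), above the 21.4% of all regions. Beyond 100 kb they were 36.3% (31.4 to 41.5%), 30.0% (27.0 to 33.1%) and 29.0% (22.2 to 36.8%), and all 3 intervals included the 32.2% of all regions. Among their genes, the netrin receptor gene Unc5d had 15 of 43 regions, the glutamate receptor gene Grm7 14 of 30, and the muscarinic acetylcholine receptor gene Chrm2 8 of 12.

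Within 100 kb of pluripotency genes few of the regions were held by Halo-Sox2 alone. At any distance these genes had 35 Halo-Sox2 only regions of 188 (18.6%, 13.7 to 24.8%), at 8 of 20 genes. Within 100 kb their share was 10.1% (15 of 148, 6.24 to 16.0%), below the 21.4% of all regions. Klf4 held 17 of the 35, at 34 regions in all, and Tbx3, a T-box factor gene, 9 of 32. Without Klf4 the list had 18 of 154 regions (11.7%, 7.52 to 17.7%), and within 100 kb 8.27% (4.68 to 14.2%). Beyond 100 kb the list had 20 of 40 (50.0%, 35.2 to 64.8%), and without Klf4 7 of 21 (33.3%, 17.2 to 54.6%), so that value rested largely on regions nearest to Klf4. At any distance 35.1% of the regions nearest to pluripotency genes were held by all 3 lists, against 17889 of all 62507 regions outside genes. For ribosomal protein genes this share was 37.0%. The Halo-Sox2a only share at pluripotency genes was 16.5%, against 12.3% of all regions.

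With regions at any distance counted, lists of other lineages did not differ from all regions beyond counting error. Neural transcription factor genes had 70 of 320 regions (21.9%, 17.7 to 26.7%), at 21 of 24 genes, led by the POU factor gene Pou3f3 with 12 of 33 and the SOX factor gene Sox11 with 10 of 22. Trophoblast genes had 28 of 128 (21.9%, 15.6 to 29.8%), with 11 of 38 at Gata3 and 5 of 29 at Tfap2c. Mesendoderm genes had 14 of 71 (19.7%, 12.1 to 30.4%), with 9 of 41 at Foxa2 and 2 of 12 at Gsc. Primitive endoderm genes had 18 of 81 (22.2%, 14.5 to 32.4%), with 7 of 15 at Gata6 and 3 of 4 at Col4a1, which encodes a basement membrane collagen. The interval of each of these 4 lists included 24.5%. Beyond 100 kb the neural transcription factor list had 37 of 152 regions (24.3%, 18.2 to 31.7%), below the 32.2% of all regions. Within 100 kb its interval (14.3 to 26.3%) included the 21.4% of all regions. The intervals of the trophoblast, mesendoderm and primitive endoderm lists included the share of all regions on both sides of 100 kb.

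A pair of lists served as comparison. Chemoreceptor genes, for smell and taste, had 191 of 1042 regions (18.3%, 16.1 to 20.8%), led by the bitter taste receptor genes Tas2r134 with 9 of 20 and Tas2r119 with 6 of 9. Genes for cytosolic ribosomal proteins had 60 of 300 (20.0%, 15.9 to 24.9%), led by Rps29 with 13 of 37 and Rpl34 with 10 of 21. Within 100 kb these shares were 17.7% (15.4 to 20.2%) and 15.0% (10.9 to 20.2%), below the 21.4% of all regions. A low share near gene ends was thus not particular to the pluripotency list.

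**Figure D5:**
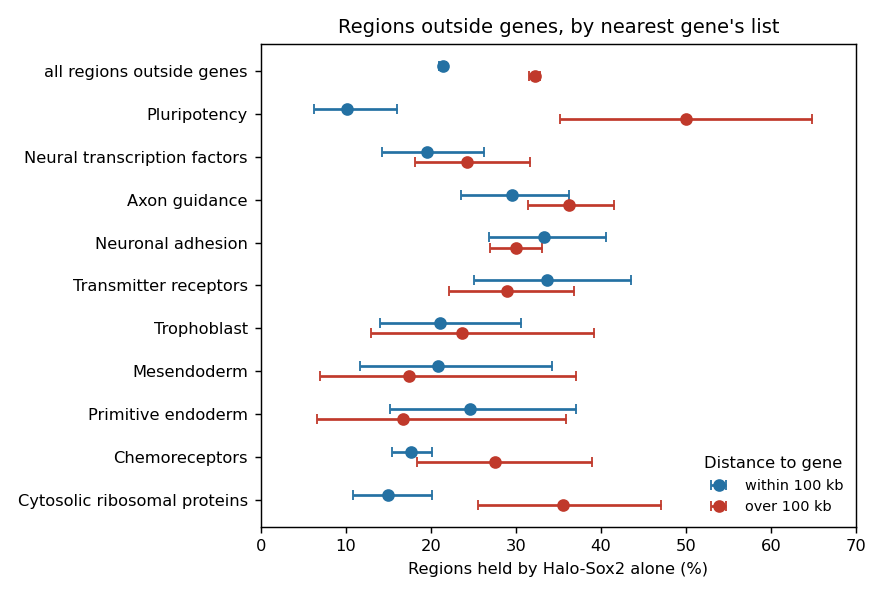
Share of regions outside genes held by Halo-Sox2 alone (x axis, percent) for each list of nearest genes (y axis), within and beyond 100 kb of a gene end, with Wilson 95% intervals as bars. Within 100 kb the pluripotency list lies lowest, at 10.1%, and the transmitter receptor list highest, at 33.7%, against 21.4% for all regions.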

How the data were processed

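ATAC-seq was measured in 3 mouse embryonic stem cell libraries, 1 per group. The authors deposited 1 peak list per library, with a score per peak whose scale is not stated. STAR, SAMtools, MACS2 (3.0.0a7), MACS3, deepTools (3.3.0) and the build mm10 are named in the submitters' processing notes, without roles. Any shift of read ends, and the calling threshold, are not given in the sources used here. Depth is unknown.

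Positions were converted to 1-based coordinates. Peaks sharing 1 bp were merged. Genes were 21631 protein-coding RefSeq genes of GRCm38.p6. The nearest gene was that with the nearer end to a midpoint. Shares carry Wilson 95% intervals. Words were planned for the centre of each region, but a genome sequence was not used here. They were counted in 300-base RefSeq promoter windows, 1 per region. Python 3.11.15, pandas 2.3.3, numpy 2.4.6 and scipy 1.17.1 were used, and the steps were tested on simulated data.

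Named were the 10 highest-scoring regions, the 3 longest runs, the 12 genes nearest to most members, and 2 genes per list. The members and lists were chosen with earlier results of these data known. The sequences shown, the ranking of words, the GC bands, and the counts without chromosome 8 or Klf4 were chosen after the data were seen.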

Additional observations from a re-analysis of the deposited data

How the results depend on the processing

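When sharing required 50% of both peaks, 28.8% of regions outside genes were held by Halo-Sox2 alone, 35.7% of these lay over 100 kb from a gene, 77.3% had no other peak within 500 bp, and 46.0% of their windows held a SOX core word. With scores at least 2 times the lowest, the share held alone was 26.2%, the share above percentile 75 was 15.8%, and 97.0% had no other peak within 500 bp. With lists of equal size these values were 21.7, 20.4 and 97.6%, and 38.9% lay over 100 kb from a gene, now above the 37.5% of control only regions, which then outnumbered Halo-Sox2a only regions, 9541 to 5459. When no base could lie inside a gene, 25.6% were held alone. When gaps of up to 500 bp joined peaks, 100% had no other peak within 500 bp by construction. SOX core words were in 35.6% of the central 150 bp of windows (16.6% over all windows), and in 67.7% of windows under 50% GC (41.0% over all), a limit added after seeing the data. Within 100 kb of a gene end the pluripotency, axon guidance and ribosomal protein lists gave 10.1, 29.5 and 15.0%. The primitive endoderm list, at 24.6% (15.2 to 37.1%), moved from below all regions to above their 21.4%, with an interval that included that share. Of 10 named regions, those near Snx18 and 9530057J20Rik were no longer members when all RefSeq genes counted, and Adgrl2 and Tenm3 then had 11 and 14 members. The region near 9530057J20Rik was also lost when gaps were joined. The causes were not tested. No paired analysis was possible because each group had 1 library. Peaks near the calling threshold can be missed in any library.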

Other observations

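Non-coding genes held a minority of the Halo-Sox2 only regions. The midpoint lay in a lncRNA gene for 2278 of them (14.9%, Wilson 95% interval 14.3 to 15.4%) and in a pseudogene for 160 (1.04%). Over all non-coding genes the share was 16.5% (15.9 to 17.1%), against 17.5% of all regions outside protein-coding genes.

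The lncRNA gene with the most promoter windows under 1 of these regions was 9030622O22Rik, with 16. The region, at chr2:148040605-148040989 with a score of 77, lay 2.08 kb from Foxa2, which encodes a forkhead factor of endoderm and floor plate. The nearest peak of another list was 0.529 kb away. These windows overlap one another, so they count as 1 place.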
